A study of Mus musculus with 36 samples.

Results

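The Zfp9xx genes are mouse zinc finger genes that carry the symbol Zfp and a number of 3 digits beginning with 9. They were taken here as the protein-coding genes with such a symbol in GENCODE M21, selected on their raw counts: a gene was kept when its counts summed over the 36 libraries reached 360, a mean of 10 per library. Of the 63 protein-coding genes with such a symbol 54 were kept, out of 54842 genes in the count table, and they run from Zfp930 to Zfp995. The summed counts chose the members and are given once as a description: just inside the limit lay Zfp988 with 387 counts and Zfp976 with 508, and just outside it Zfp980 with 326 and Zfp957 with 273. The sums pool both lines and all times, and the rule asked for no difference between the lines. For 4 members it still bears on that difference, because the level of their lower line held in both lines would have left them under the limit: Zfp941 (89 counts in the MSR-dCas9-Control and 4956 in the MSR-dCas9-Activator libraries), Zfp969 (445 and 170), Zfp976 (335 and 173) and Zfp988 (214 and 173). Their line differences are given as descriptions, and counts without them are given beside the main ones.

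RNA was measured in mouse embryonic fibroblast (MEF) cells that carry dCas9, a Cas9 that binds DNA without cutting it, and a guide RNA against the major satellite repeats (MSR) of pericentric heterochromatin. In the MSR-dCas9-Control line dCas9 has no effector, and in the MSR-dCas9-Activator line it is fused to the transcriptional activator VPR. Both lines express the fusion from a doxycycline-inducible promoter, carry the guide RNA and were made as mixed cell populations by PiggyBac transposition, so a line is neither a clone nor the parental cells. The study asked how MSR RNA output bears on the organisation of heterochromatin. It used a time course of RNA sequencing to look for altered pathways that could underlie the lost viability. Each line was sampled uninduced, induced with 10 ng/ml doxycycline, and at 4 times (3 h, 6 h, 12 h, 24 h) following its removal, in 3 replicates each. Doxycycline was given for 24 h to MSR-dCas9-Control cells but for 6 h to MSR-dCas9-Activator cells, so the effector and the length of exposure to doxycycline cannot be told apart in a comparison of the lines. The replicates are biological replicates by the methods of the study, and the labels number them without naming a culture.

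C2H2 zinc fingers are small folds that bind DNA, and a row of them lets a protein read a stretch of bases. Many of these genes also encode a KRAB domain, which recruits the corepressor TRIM28 (KAP1) and with it the histone methyltransferase SETDB1, which lays H3K9me3 over transposable elements. KRAB zinc finger genes stand in tandem clusters that grew by duplication, and the clusters of rodents hold many members without a counterpart in other mammals. In the longest coding sequence of each member a search found at least 1 C2H2 finger in 52 of 54 members, with a median of 11 and at most 21. The core of the KRAB A box was found in 46 members. No finger was found in the annotated coding sequences of Zfp935 and Zfp972.

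The promoters of the members were read from RefSeq (build GRCm38.p6, from 250 bases before to 50 after a start), where 46 of 54 members matched, with 53 promoters. The 7 sequences printed here are the 250 bases before the start, 5′ to 3′ on the strand of the gene, with CCAAT boxes (CCAAT, or ATTGG on the other strand) in capitals. Zfp970, Zfp966, Zfp971 and Zfp931 are shown because they stand in the distal cluster of chromosome 2, whose members fell most in MSR-dCas9-Activator cells. Zfp961 is shown as a gene of chromosome 8 that fell nearly as far, and Zfp941 and Zfp963 as the members that rose most. They lie, in this order, as follows: Zfp970 at chr2:177464492-177464741, plus strand, Zfp966 at chr2:175931101-175931350, minus strand, Zfp971 at chr2:178023034-178023283, plus strand, Zfp931 at chr2:178078426-178078675, minus strand, Zfp961 at chr8:71950816-71951065, plus strand, Zfp941 at chr7:140822179-140822428, minus strand and Zfp963 at chr8:69749963-69750212, minus strand.
Zfp970: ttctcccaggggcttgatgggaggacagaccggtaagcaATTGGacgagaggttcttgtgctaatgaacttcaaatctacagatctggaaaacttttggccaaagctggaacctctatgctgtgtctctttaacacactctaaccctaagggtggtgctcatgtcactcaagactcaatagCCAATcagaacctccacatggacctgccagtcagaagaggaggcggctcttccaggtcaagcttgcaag
Zfp966: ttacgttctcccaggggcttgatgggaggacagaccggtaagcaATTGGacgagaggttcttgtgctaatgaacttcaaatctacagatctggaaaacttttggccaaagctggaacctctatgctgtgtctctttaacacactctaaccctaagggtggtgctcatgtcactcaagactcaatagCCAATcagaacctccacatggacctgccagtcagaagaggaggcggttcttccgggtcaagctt
Zfp971: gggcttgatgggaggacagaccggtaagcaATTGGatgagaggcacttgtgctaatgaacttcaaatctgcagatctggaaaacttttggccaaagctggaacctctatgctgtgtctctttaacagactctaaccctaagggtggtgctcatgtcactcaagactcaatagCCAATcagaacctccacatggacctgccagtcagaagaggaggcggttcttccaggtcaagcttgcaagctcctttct
Zfp931: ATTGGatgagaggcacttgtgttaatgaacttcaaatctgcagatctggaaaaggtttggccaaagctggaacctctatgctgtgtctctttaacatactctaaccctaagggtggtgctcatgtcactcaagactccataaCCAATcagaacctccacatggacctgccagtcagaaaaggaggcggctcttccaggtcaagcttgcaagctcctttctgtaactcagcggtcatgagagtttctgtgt
Zfp961: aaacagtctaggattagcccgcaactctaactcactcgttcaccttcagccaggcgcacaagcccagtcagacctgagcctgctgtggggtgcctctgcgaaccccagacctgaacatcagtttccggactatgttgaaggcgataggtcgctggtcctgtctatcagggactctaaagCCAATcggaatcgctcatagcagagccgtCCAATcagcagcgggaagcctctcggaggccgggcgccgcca
Zfp941: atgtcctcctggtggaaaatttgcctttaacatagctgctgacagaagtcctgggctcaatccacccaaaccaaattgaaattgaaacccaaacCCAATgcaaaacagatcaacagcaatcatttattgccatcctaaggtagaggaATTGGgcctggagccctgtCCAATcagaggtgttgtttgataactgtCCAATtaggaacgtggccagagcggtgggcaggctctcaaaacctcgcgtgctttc
Zfp963: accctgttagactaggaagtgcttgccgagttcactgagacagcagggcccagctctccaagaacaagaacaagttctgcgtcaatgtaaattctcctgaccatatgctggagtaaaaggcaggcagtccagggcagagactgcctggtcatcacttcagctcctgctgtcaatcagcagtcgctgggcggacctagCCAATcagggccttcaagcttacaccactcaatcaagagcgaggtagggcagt

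The chromosome 2 promoters are near copies of each other. Aligned over 300 bases, those of Zfp966 and Zfp970 were identical at 97.7% of positions, those of Zfp965 and Zfp971 at 97.0%, and those of Zfp931 and Zfp971 at 87.3%, against a median of 51.3% over the 1035 pairs of members. The letters CCAAT stood on either strand in 40 of the 53 member promoters (75.5%) and in 37.4% of all 32851 promoters of this length. The longer run GCCAATCAG, which contains CCAAT and was chosen after these sequences were seen, stood in 18 of 53 (34.0%) against 2.2% of all. The ETS letters CCGGAAG stood in 26.4% against 8.9%, the GC box GGGCGG in 34.0% against 35.7%, the CRE letters TGACG in 26.4% against 20.8%, and TATAAA in 0 member promoters against 13.6% of all, all on either strand. With 1 promoter per member, CCAAT stood in 23 of 31 members that fell (74.2%) and in 9 of 11 that rose (81.8%). Members with duplicated promoters share their origin, and a match of letters is no evidence that a factor binds.

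Gene counts per library ran from 27376846 to 57371803, and the members took between 0.0250% and 0.0659% of them. Counts of GSAT_MM, the major satellite repeat that the guide RNA targets, lay between 17.8 and 39.6 CPM (over all gene and repeat counts, without TMM) in the 18 MSR-dCas9-Control libraries, between 43.0 and 80.4 in uninduced and between 1890 and 27820 in induced and recovering MSR-dCas9-Activator libraries. The fibroblast genes Col1a1 (2622 to 14190 CPM), Vim and Fn1 were high in every library, whereas Thy1 stayed at or below 0.206 and Postn at or below 3.89 CPM. Levels of genes are in CPM scaled by TMM, which sets a common library size. The 10 fibroblast markers summed to 22220 to 34420 CPM in MSR-dCas9-Control libraries and to 10820 to 33830 in MSR-dCas9-Activator libraries. The summed markers of epithelial, blood, neuronal and pluripotent cells lay under 10 CPM in every library, with Hbb-bt at 0 in all, while the endothelial pair reached 33.1 in the MSR-dCas9-Activator line. The part of these differences in the results was not tested. In bulk RNA, fewer cells that express a gene and less RNA per cell cannot be told apart.

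In the uninduced libraries of both lines the members were expressed at low to moderate levels. Per kb of exon, Zfp948 was the highest at 15.0 ± 1.78 CPM per kb (SD, n = 6), followed by Zfp971 (7.83 ± 0.562), Zfp991 (7.51 ± 0.581), Zfp984 (6.72 ± 0.802) and Zfp961 (6.64 ± 0.781), each of them a C2H2 zinc finger gene. Among the last 4, neighbours in this order lay within the larger of their SDs of each other. The lowest was Zfp941 at 0.0687 ± 0.0682, with both lines pooled. Counts of some members rest on shared sequence: 15 of 54 had no stretch of 100 bases in common with the transcripts of another gene, while in 9 more than 50% of such stretches also occurred elsewhere (Zfp935, Zfp960, Zfp965, Zfp966, Zfp969, Zfp973, Zfp978, Zfp991 and Zfp993), and their counts are uncertain.

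Before induction few members were called between the lines. Of 54 members 2 were called higher in MSR-dCas9-Activator cells (edgeR quasi-likelihood test, Benjamini-Hochberg adjusted p under 0.05, the rule for every call here) and 0 lower, where 0.883% of all 28536 genes tested were called higher and 0.343% lower. For the 0 lower calls, 7 members had an unadjusted p under 0.05 in either direction, and DESeq2 called 3 members in all. The 2 were Zfp941, chosen in part through this difference, and Zfp981. The median line difference of the members was 0.02 on the log2 scale, of all genes 0.03. Without replicate 3 neither was called, and without any of 5 single libraries (each MSR-dCas9-Control replicate, and MSR-dCas9-Activator replicates 2 and 3) 1 was.

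From induction on, most members were lower in MSR-dCas9-Activator cells. Averaged over the 5 groups from induction to 24 h, 36 of 54 members were called lower and 12 higher, where 40.2% of all genes tested were called lower and 46% higher. Among the 50 members whose selection does not bear on the difference 33 were lower and 11 higher. The median line difference of the members was −0.54, with quartiles of −1.28 and −0.04, against a median of 0.08 for all genes. The 278 other zinc finger genes named Zfp and a number, held to the same limit on counts, had a median of −0.51 and were called lower in 188 cases and higher in 61, shares of 67.6% and 21.9% beside 66.7% and 22.2% of the members. Scaled to the 13 mitochondrial mRNAs in place of TMM, the median of all genes moved from 0.08 to −0.41, and 43 members were called lower and 6 higher, beside 56.2% and 30.8% of all genes. Of the 48 calls, 41 kept their direction and their significance without any single library or replicate number, 32 of them lower and 9 higher.

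Members were called at each of the 5 times. In the induced groups 26 members were lower and 8 higher (25.5% and 31.7% of all genes). At 3 h the members lower and higher numbered 34 and 9 (31.4% and 39.6%), and 6 h gave 35 and 9 (33.3% and 40.8%). At 12 h there were 31 lower and 12 higher (34.1% and 41.1%), and the 24 h libraries gave 29 lower and 12 higher (29.4% and 34.5%). Without the 4 members whose selection bears on the difference, 24, 32, 33, 29 and 27 of 50 were lower at these 5 times and 7, 8, 8, 11 and 11 higher. The median of the members went from −0.41 in the induced groups to −0.71 after 3 h, reached −0.80 after 6 h, and lay at −0.51 and −0.37 in the last 2 groups (12 h, 24 h). All 3 MSR-dCas9-Activator libraries lay below all 3 of the MSR-dCas9-Control line in 30, 36, 35, 28 and 27 members at these times. All 3 lay above in 8, 8, 8, 12 and 13 members. Before induction 1 member lay below and 9 above. The share of all genes without overlap is not given, so these counts describe the members alone. In all, 23 members were called lower at all 5 times and 5 higher at all 5 (Zfp938, Zfp941, Zfp947, Zfp956 and Zfp963). Among these, Zfp941, Zfp969 and Zfp976 stand as descriptions. The shares of all genes called at all 5 times are not given, so nothing particular to the members is read from these counts. Zfp988 and Zfp993 were called at none. Zfp960 was called lower at the first pair of times after removal (3 h, 6 h) and higher at the last pair (12 h, 24 h), and Zfp974 was higher in the induced groups and lower at 24 h, both chosen for mention after their values were seen. Of 9 fits that left out a library or a replicate number, Zfp974 lost its call in 5 in the induced groups and in 6 at 24 h, and Zfp960 lost it in 0, 2, 3 and 3 at the 4 times after removal in turn. Of the 37 members that were lower at least at 1 time and higher at none, none had its widest gap in the induced groups, while 12, 12, 10 and 3 had it at the 4 later times in turn.

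These counts moved with some settings. Scaled to the mitochondrial mRNAs, 34 members were lower and 3 higher in the induced groups, and at the 4 later times in turn 41, 45, 39 and 29 were lower and 5, 3, 6 and 6 higher. Under this scaling 35.2%, 47.6%, 51.9%, 48.5% and 30.8% of all genes were called lower at these 5 times and 20.4%, 23.5%, 24% (6 h), 28.1% and 28.4% higher. Without replicate 3 the calls in the induced groups fell to 22 of 54. The 24 h groups gave 24 without replicate 3 and 25 without replicate 1. MSR-dCas9-Activator replicate 2 stood apart among the falling members: of the 36, its level was the highest of the 3 replicates in 30 in the induced groups and in 28, 33, 30 and 31 at the later times in turn, against 19 before induction. Its mean correlation with the other replicates of its group was 0.957 at 24 h, the lowest of all 36 libraries. Its GSAT_MM counts were the lowest of its group in the induced state (1890 beside 2810 and 17890 CPM) and not at the later times. Among the 12 rising members it was the lowest of the 3 replicates in 11 at 24 h. Its part in the results was not tested. Without replicate 2, 33 members were lower and 13 higher in the mean of the 5 groups.

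**Figure D1:**
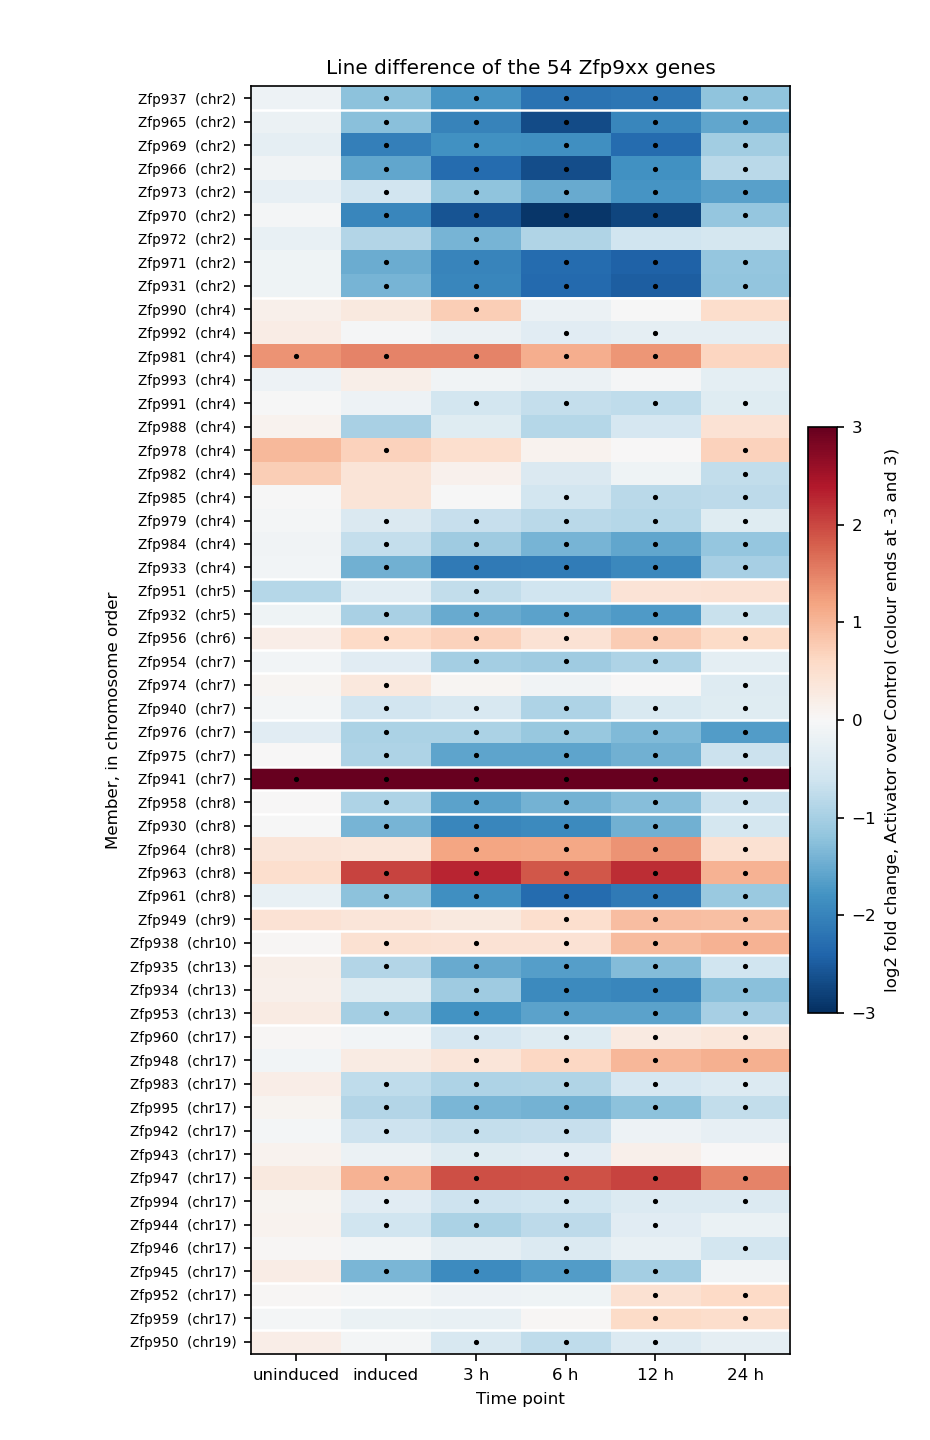
The log2 fold change of the MSR-dCas9-Activator over the MSR-dCas9-Control line at each time (columns) for the 54 members in chromosome order (rows). Blue is lower and red higher in MSR-dCas9-Activator cells, dots mark an adjusted p under 0.05, white lines part runs of neighbouring members, and the colour ends at 3, which Zfp941 exceeds from before induction on. The chromosome 2 rows are blue at every time from induction on, and Zfp941 is red throughout.

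**Figure D2:**
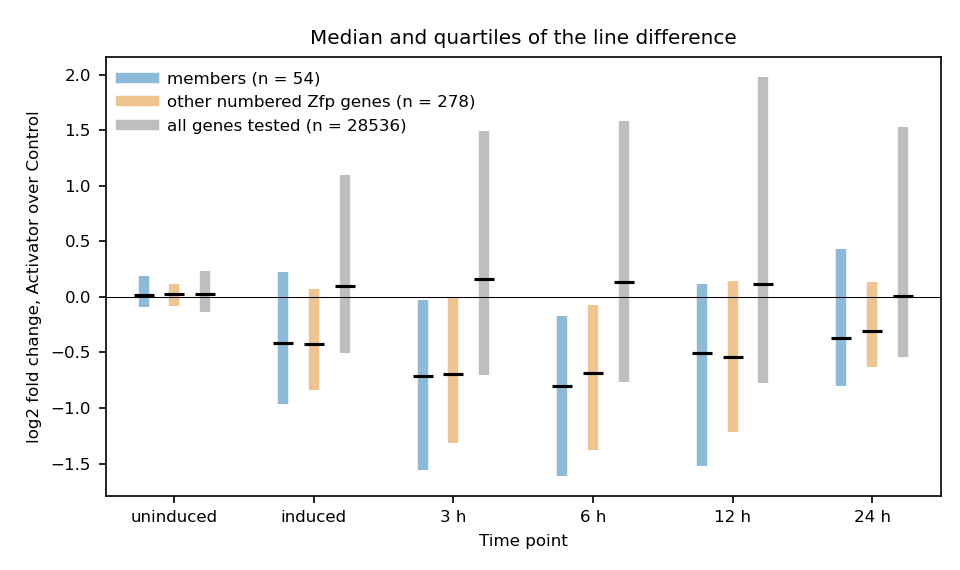
Median (black bar) and quartiles (coloured bar) of the log2 fold change between the lines at each time for the 54 members, 278 other numbered Zfp genes and 28536 genes tested. From induction on, the medians of the members and the other Zfp genes lie below 0 by similar amounts (−0.80 and −0.69 at 6 h). The median of all genes stays between 0.01 and 0.16.

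Of the 8 members that fell most, 6 stand together on distal chromosome 2. In the window from 175469985 to 178078476 on that chromosome (GRCm38) lie 8 members. All 8 were lower in the mean of the 5 groups (Zfp972 was called singly at 3 h alone). Their median there was −1.85, with values from −2.27 to −0.87. The median of the 8 was −0.15 before induction, −1.44 in the induced groups, −2.32 after 6 h and −1.16 after 24 h. Zfp969 is among the 6 and the 8, and stands as a description because its selection bears on the line difference. Of the 20 other protein-coding genes tested in this window 15 were lower and 3 higher (40.2% and 46% of all genes), with a median of −1.37. The promoter copies printed for this cluster belong to genes whose transcripts also share sequence, and how such reads were assigned is not stated.

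Zfp970 (chr2:177464733-177478129, plus strand) had the widest gap of all members that fell. Its level was 13.3, 12.8 and 12.4 CPM in replicates 1 to 3 of uninduced MSR-dCas9-Control cells and 12.3, 11.04 and 13.4 in uninduced MSR-dCas9-Activator cells. At 6 h it was 16.1, 15.2 and 13.2 in MSR-dCas9-Control and 1.40, 3.08 and 1.61 in MSR-dCas9-Activator cells, and the lines were far apart in every replicate. At 24 h the MSR-dCas9-Control libraries held 18.3, 17.9 and 13.4 and the MSR-dCas9-Activator libraries 4.34, 13.3 and 5.69, so that replicate 2 lay close to, and still below, the lowest MSR-dCas9-Control value. The log2 fold change was −2.91 ± 0.322 (SE) after 6 h, −1.16 ± 0.291 after 24 h, and −2.27 ± 0.141 in the mean of the 5 groups (edgeR, Benjamini-Hochberg adjusted p = 2.29e-14). Without replicate 1 the call at 24 h was lost. The mean difference corresponds to a level 4.84-fold lower, and 17.4% of the 100-base stretches of Zfp970 occur in other transcripts.

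Zfp971 (chr2:178023284-178034022, plus strand) and Zfp931 (chr2:178067695-178078476, minus strand) are neighbours at the end of the cluster. Zfp971 was at 17.2, 17.0 and 18.3 CPM in uninduced MSR-dCas9-Control cells and at 15.7, 15.1 and 17.5 in uninduced MSR-dCas9-Activator cells. The 12 h libraries held 17.7, 18.0 and 16.8 against 2.37, 4.71 and 2.85. The 24 h libraries held 20.1, 20.5 and 18.6 against 6.76, 13.3 and 7.29. The lines were thus apart in all libraries at both times, with replicate 2 the highest in MSR-dCas9-Activator cells. Zfp931, with 6.9% shared sequence, went the same way, from 7.11, 7.93 and 8.01 in uninduced MSR-dCas9-Activator cells to 1.11, 2.58 and 1.30 at 12 h, where the MSR-dCas9-Control libraries held 8.43, 9.49 and 9.11. In the mean of the 5 groups the log2 fold change was −1.87 ± 0.0902 for Zfp971 and −1.86 ± 0.103 for Zfp931 (edgeR, Benjamini-Hochberg adjusted p = 7.20e-18 and 1.68e-16).

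Zfp966, Zfp965 and Zfp969 complete the named genes of this cluster, and their counts are uncertain. Of their 100-base stretches 79.9%, 93.4% and 100% occur in other transcripts, for Zfp966 and Zfp969 foremost in those of Zfp968, itself a gene of this group of symbols with 37 counts in all, and for Zfp965 in those of Zfp973. Zfp966 was between 3.71 and 5.86 CPM in all 18 MSR-dCas9-Control libraries, and at 0.654, 1.23 and 0.536 in MSR-dCas9-Activator cells at 6 h. Zfp969 stayed at or under 1.04 CPM everywhere. The log2 fold changes in the mean of the 5 groups were −1.83 ± 0.0956 and −1.89 ± 0.149 for Zfp966 and Zfp965 (edgeR, Benjamini-Hochberg adjusted p = 4.50e-17 and 7.48e-13). For Zfp969, given as a description, the value was −1.81 ± 0.206.

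Outside this cluster 2 of the named genes fell nearly as far, and neither shared a stretch of 100 bases with another gene. Zfp961 (chr8:71951038-71993792, plus strand) lay between 28.29 and 36.03 CPM in all MSR-dCas9-Control libraries and at 27.8, 23.4 and 28.8 in uninduced MSR-dCas9-Activator cells. MSR-dCas9-Activator libraries held 13.3, 16.1 and 13.2 in the induced state, 6.27, 8.38 and 6.00 at 6 h, and 12.7, 17.5 and 13.1 at 24 h. All 15 libraries from induction on were thus below every MSR-dCas9-Control library. Zfp933 (chr4:147822986-147848366, minus strand) lay between 14.7 and 18.2 in the MSR-dCas9-Control line and at 3.02, 5.21 and 2.80 in MSR-dCas9-Activator cells at 3 h. At 24 h its MSR-dCas9-Activator libraries held 6.98, 13.3 and 6.96, replicate 2 again the highest. Their log2 fold changes in the mean of the 5 groups were −1.73 ± 0.0634 for Zfp961 and −1.72 ± 0.0958 for Zfp933 (edgeR, Benjamini-Hochberg adjusted p = 1.25e-20 and 2.73e-16). Within 100 kb of Zfp961 the zinc finger genes Zfp617 (−1.24) and Zfp882 (−1.45) were lower too, while Cyp4f18 (4.52) and the olfactory receptor gene Olfr373 (3.61) were higher. Cyp4f18 overlaps 181 exonic bases of Zfp961 on the opposite strand, and the strand setting of the counts is not given.

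**Figure D3:**
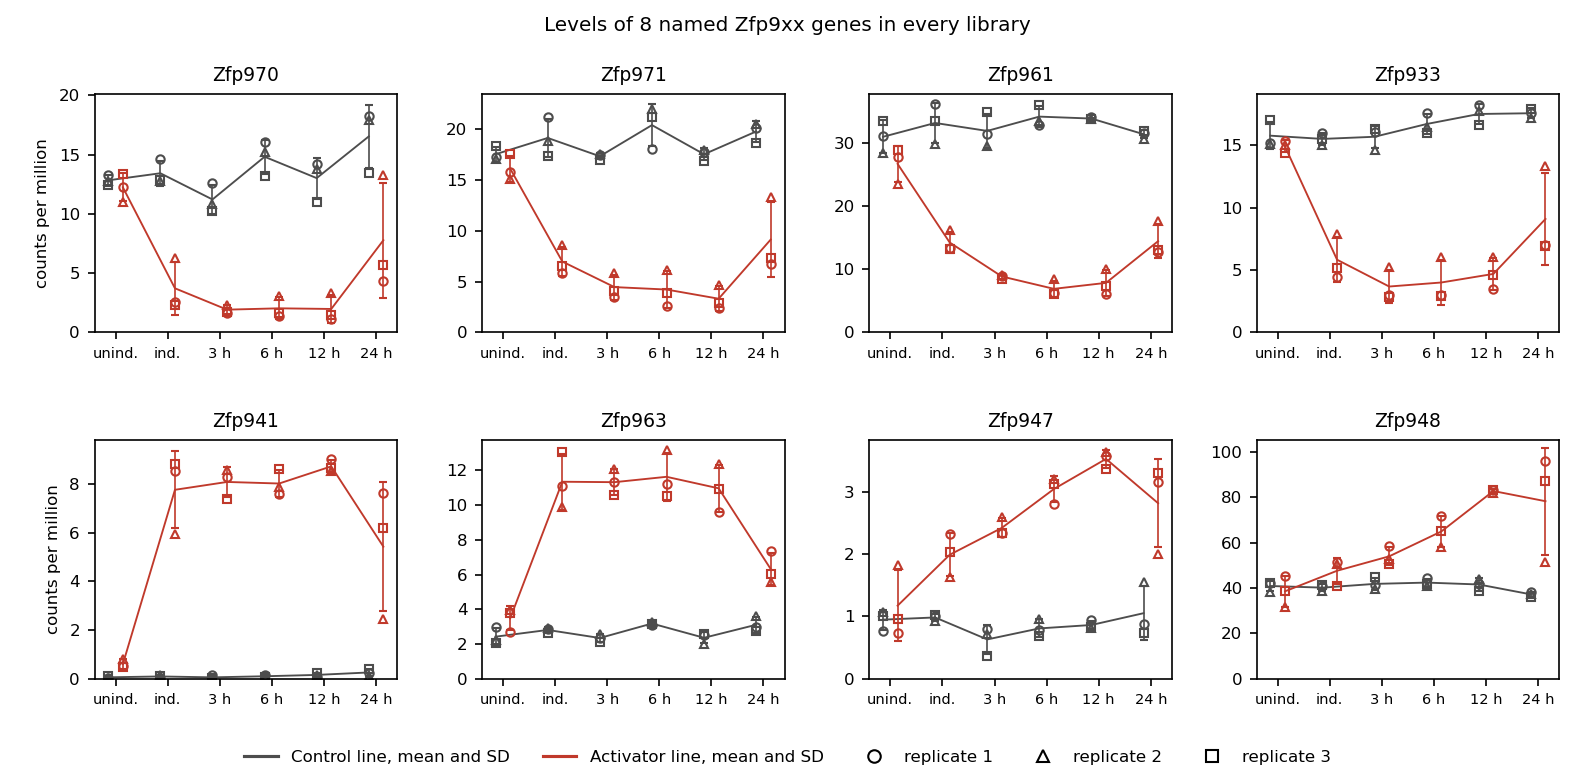
CPM (y axes, from 0) of 8 named members at each time in every library, with the mean and SD of the 3 replicates of each line. In the upper row MSR-dCas9-Activator levels drop on induction, stay low to 12 h and are higher again at 24 h, most of all in replicate 2 (triangles), while the lower row shows members that rose.

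Zfp941 was near 0 in the MSR-dCas9-Control line and reached the limit on counts only through the MSR-dCas9-Activator line, so its values are a description without a test. This gene (chr7:140807449-140822178, minus strand) held from 0 to 19 counts in the 18 MSR-dCas9-Control libraries, or 0 to 0.409 CPM. In uninduced MSR-dCas9-Activator cells it was already at 0.502, 0.817 and 0.466 CPM, above the 0.0341, 0.0307 and 0.0950 of uninduced MSR-dCas9-Control cells. After induction it was at 8.54, 5.95 and 8.84, by 12 h it stood at 9.02, 8.54 and 8.65, and the 24 h libraries held 7.64, 2.47 and 6.19. The lines did not overlap at any time, and MSR-dCas9-Activator replicate 2 was the lowest at 24 h. The log2 fold change was 3.47 ± 0.620 before induction and 6.02 ± 0.201, a 64.8-fold higher level, in the mean of the 5 groups. The step on induction was larger in the MSR-dCas9-Activator than in the MSR-dCas9-Control line by 3.04 ± 1.11, which is a description too. Its call is not read as a test, and was lost in 10 of 15 fits that left out a library or a replicate number.

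Of the 12 protein-coding genes tested within 100 kb of Zfp941, 7 were higher and 5 lower in the mean of the 5 groups, where 46% and 40.2% of all genes were called, and nothing local is read from this count. Cyp2e1, a cytochrome P450 of liver, was listed with a mean of 0 CPM in induced MSR-dCas9-Control cells and 1.49 in induced MSR-dCas9-Activator cells, and Syce1, a gene of the meiotic synaptonemal complex, at 0 and 1.41. Bet1l (−1.11) and Ric8a (−0.69) fell. Gm45785 shares 251 exonic bases with Zfp941 on the same strand and had a log2 fold change of −0.35.

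Zfp963 (chr8:69741639-69749970, minus strand) was the other member whose change on induction was called more positive in the MSR-dCas9-Activator line. It was at 3.00, 2.21 and 2.04 CPM in uninduced MSR-dCas9-Control cells and at 2.68, 3.97 and 3.78 in uninduced MSR-dCas9-Activator cells, which overlap. In the induced groups it was at 2.85, 2.94 and 2.62 against 11.1, 9.88 and 13.1, and the 24 h libraries held 2.95, 3.63 and 2.73 against 7.37, 5.55 and 6.01, with no overlap at either time. The log2 fold change was 1.88 ± 0.0746 in the mean of the 5 groups (edgeR, Benjamini-Hochberg adjusted p = 6.69e-20). Its transcripts share 36.2% of their 100-base stretches with other genes, nearly all with Gm20422, which overlaps 937 of its exonic bases on the same strand and was also higher (0.88), so the counts of this pair are uncertain. Zfp964, a neighbour in the same cluster, was already at 3.60, 4.88 and 3.37 in uninduced MSR-dCas9-Activator cells, above the 2.98, 3.28 and 3.02 of uninduced MSR-dCas9-Control cells (a log2 fold change of 0.36 ± 0.176, not called). It was at 3.36, 2.33 and 3.99 in induced MSR-dCas9-Activator cells and 6.60, 5.36 and 6.42 at 12 h, where the MSR-dCas9-Control libraries held 2.437, 2.245 and 2.501. Zfp964 averaged 0.90 ± 0.0794 over the 5 groups, and 0.54 ± 0.193 less the difference before induction (edgeR, Benjamini-Hochberg adjusted p = 1.00e-11 and 0.0188).

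Zfp947 and Zfp948, both of the chromosome 17 cluster, had their widest gaps late. Zfp947 (chr17:22144359-22166190, minus strand) was at 0.732, 1.82 and 0.959 CPM in uninduced MSR-dCas9-Activator cells, where replicate 2 already lay above every MSR-dCas9-Control library. It was at 2.31, 1.62 and 2.02 CPM in induced MSR-dCas9-Activator cells and 2.33, 2.60 and 2.33 after 3 h. It reached 2.80, 3.20 and 3.13 after 6 h, then 3.58, 3.63 and 3.37 after 12 h. The MSR-dCas9-Control libraries stayed between 0.368 and 1.54 throughout. Zfp948 (chr17:21567008-21588699, plus strand), the most highly expressed member, lay between 35.9 and 44.8 in all MSR-dCas9-Control libraries and reached 83.5, 81.8 and 83.2 in MSR-dCas9-Activator cells at 12 h, then 96.2, 51.6 and 87.2 at 24 h. The log2 fold changes in the mean of the 5 groups were 1.68 ± 0.124 and 0.65 ± 0.0560 for Zfp947 and Zfp948 (edgeR, Benjamini-Hochberg adjusted p = 1.69e-13 and 5.05e-12). Their cluster held 11 members, of which 8 were lower and 2, these, higher.

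The other named members that rose did so by less. Zfp938 of chromosome 10 and Zfp956 of chromosome 6 were higher at all 5 times, with log2 fold changes of 0.66 ± 0.0597 and 0.62 ± 0.0645 in the mean of the 5 groups (edgeR, Benjamini-Hochberg adjusted p = 1.99e-11 and 4.13e-10). Zfp956 shares 290 exonic bases with Zfp783 on the same strand. Neither Zfp938 nor Zfp956 was called once counts were scaled to the mitochondrial mRNAs (0.17 and 0.13). Zfp981 of chromosome 4 was higher by 1.21 ± 0.131, but it had been higher by 1.34 ± 0.337 before induction, and less that difference the change was −0.13 (edgeR, Benjamini-Hochberg adjusted p = 0.835). Its uninduced levels were 0.358, 0.399 and 0.380 CPM in MSR-dCas9-Control and 0.878, 1.07 and 0.881 in MSR-dCas9-Activator cells. The call of Zfp981 before induction was lost without replicate 1 or 3, or without any of the 5 single libraries named above.

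**Figure D4:**
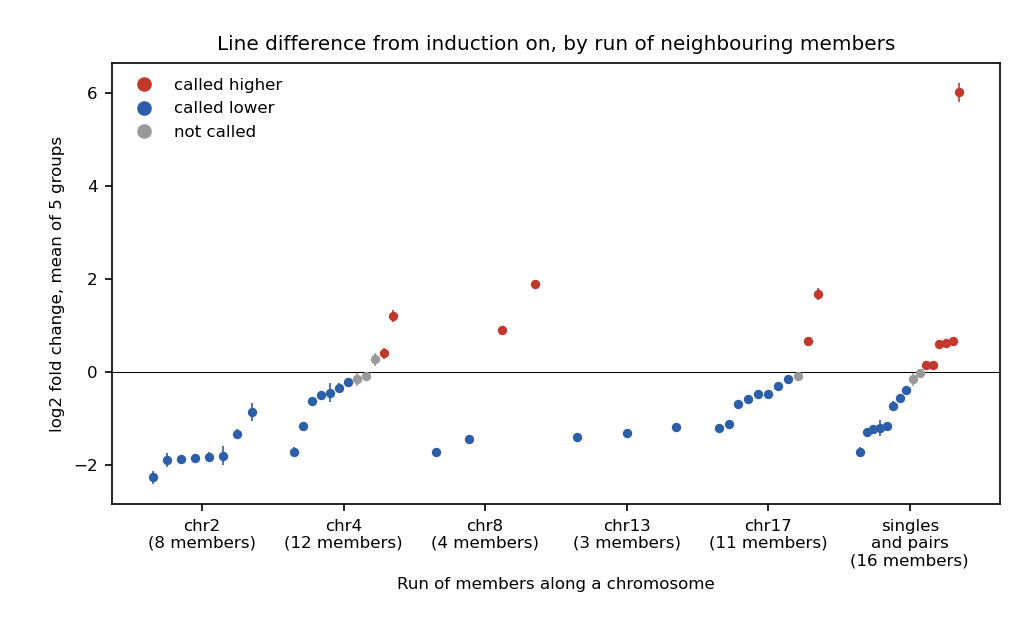
The log2 fold change between the lines in the mean of the 5 groups from induction on (y axis, with SE) for each member, grouped by the 5 runs of 3 or more neighbouring members and the 16 remaining genes. All members of the chromosome 2 and chromosome 13 runs were called lower, with Zfp969 of chromosome 2 as a description. The runs of chromosomes 4, 8 and 17 hold members called in both directions.

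Members were joined into clusters where gaps were at most 5 Mb, and the test of a difference between clusters was not made. On chromosome 13 all 3 members (Zfp935, Zfp934 and Zfp953) were lower, with a median of −1.31, though the exons of Zfp935 are overlapped in full by those of Gm49359 and Zfp934 on the same strand and its count is uncertain. On chromosome 4, where 12 members lie between 145510759 and 147848366, 7 were lower and 2 higher, with a median of −0.29. Within that cluster Zfp933 fell by 1.72 on the log2 scale and its neighbour Zfp984 by 1.18 (edgeR, Benjamini-Hochberg adjusted p = 2.73e-16 and 1.48e-17), both at the distal end. Zfp991 fell by 0.51, on counts of which 70.3% of stretches are shared, and Zfp981 rose. On chromosome 17, 8 of 11 members were lower, with a median of −0.48, and on chromosome 8 the 4 members between 69209038 and 71993792 split into 2 lower and 2 higher, with values from −1.73 to 1.88. Duplicates in a cluster share sequence and neighbourhood and are not independent of each other.

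Within the MSR-dCas9-Activator line induction lowered 29 members and raised 7 (28% and 32.9% of all genes tested), with a median of −0.43. Within the MSR-dCas9-Control line 0 of 54 members were called in either direction on induction (edgeR), where 0.161% of all genes were called lower and 0.0526% higher. For this count of 0, 1 member had an unadjusted p under 0.05, DESeq2 called 0, and a fit of these 6 libraries alone called 3. The share of all genes called in that fit is not given. The difference of the changes was itself called for 20 members with a more negative and for 2 with a more positive change in the MSR-dCas9-Activator line (17.7% and 14.5% of all genes), the 2 being Zfp941 and Zfp963. Scaled to the mitochondrial mRNAs, induction lowered 39 members and raised 2 in the MSR-dCas9-Activator line (48.3% and 17.1% of all genes). Without the 4 members named at the start 27 were lowered and 6 raised there, and the difference of the changes was called for 19 and 1. Without replicate 3 the changes called in the MSR-dCas9-Activator line fell from 36 to 19. The calls of the difference fell from 22 to 4 without replicate 3 and to 11 without replicate 1.

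Between 12 h and 24 h after doxycycline removal the gap narrowed for some members. By the viability staining of the study, most MSR-dCas9-Activator cells were apoptotic or dead at 24 h after removal. The part of this cell death in the 24 h values was not tested. The line difference at 24 h less that at 12 h was positive and called for 10 members and negative for 2 (8.7% and 6.38% of all genes), the 2 being Zfp963 and Zfp964, which had been higher. Among those that had been lower, the gap closed by 1.60 ± 0.427 for Zfp970, by 1.28 ± 0.280 for Zfp971 and by 0.99 ± 0.196 for Zfp961 on the log2 scale (edgeR, Benjamini-Hochberg adjusted p = 0.0123, 0.00262 and 0.00115). For Zfp970, MSR-dCas9-Activator levels went from 1.16, 3.33 and 1.44 CPM at 12 h to 4.34, 13.3 and 5.69 at 24 h, a rise in each replicate number. The count of calls depended on the replicates: 0 without replicate 3, 4 without replicate 1 and 19 without replicate 2, beside 12 with all. Scaled to the mitochondrial mRNAs, 12 members were called, all positive, where 9.41% of all genes were called positive and 0.28% negative.

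Among the partners through which KRAB zinc finger proteins silence their targets, TRIM28, the corepressor bound by the KRAB domain, is encoded by Trim28, whose line difference in the mean of the 5 groups was 0.03 ± 0.0383 (edgeR, Benjamini-Hochberg adjusted p = 0.492). Setdb1, the H3K9 methyltransferase recruited by it, had the largest fall of the 15 cofactor genes listed, with −1.39 ± 0.0655 (edgeR, Benjamini-Hochberg adjusted p = 3.78e-18), and was at a mean of 97.4 CPM in induced MSR-dCas9-Control and 50.1 in induced MSR-dCas9-Activator cells. Morc2a, which acts with the HUSH silencing complex, had the largest rise (0.80 ± 0.0408). Of the 15 genes 10 were lower and 3 higher, with a median of −0.44, where 40.2% and 46% of all genes were called and their median was 0.08.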

How the data were processed

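Total RNA of 36 libraries was sequenced from a stranded kit. The deposited table holds raw counts per gene and repeat family, which the authors made with cutadapt, STAR on GRCm38 and TEtranscripts. The annotation release, the handling of reads with several matches and the strand setting are not given in the sources used here. The members and gene lists were chosen with earlier results of these data known. Repeat rows and 1 unnamed row stayed out of the tests. In R 4.3.3, edgeR 4.0.16 normalised by TMM, filtered with filterByExpr (28536 genes kept, all 54 members among them) and fitted 1 quasi-likelihood model to all libraries with line and time joined into 12 groups and replicate number as a further term. The study names replicate, time point and condition in its formula for DESeq2, so the fit shares its replicate term and is not the same formula. P-values were Benjamini-Hochberg adjusted over all genes tested, with calls under 0.05. SE is the log2 fold change divided by the root of F. The script was tested on simulated data. DESeq2 1.42.0 was an alternative. Over 18 pairs of same-numbered libraries of the lines at a time, deviations from the group means correlated at −0.0172 to 0.485 (median 0.288, 16 over 0.1). Levels are TMM-scaled CPM. Named members were the 8 with the largest called rise and fall in the mean of the 5 groups, the 5 of highest uninduced level, those called before induction and those next to the limit. Other genes named were chosen after their values were seen. Symbols, coordinates and overlaps came from GENCODE M21, promoters from RefSeq. MSR-dCas9-Repressor cells are not analysed here.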

Additional observations from a re-analysis of the deposited data

Results flagged for a closer look

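In 8 named members the lines responded unequally to induction, by a test of the difference itself (edgeR quasi-likelihood test, Benjamini-Hochberg adjusted p). The change in the MSR-dCas9-Activator line less that in the MSR-dCas9-Control line, on the log2 scale, was 1.51 for Zfp963 (adjusted p = 2.79e-05 by edgeR). It was −1.90 for Zfp970 (0.00119), −1.37 for Zfp971 (0.00041), −1.25 for Zfp931 (0.00263), and −1.47 for Zfp966 (0.000328), all of the chromosome 2 cluster. It was −1.01 for Zfp961 (0.000269), −1.36 for Zfp933 (0.000822) and −0.60 for Zfp984 (0.0116). For Zfp941 (3.04) and Zfp969 (−1.78, chromosome 2) the selection on counts bears on the lines, and their values are a description. Of the 22 members called in this contrast, 4 kept the call in every fit that left out a library or a replicate number.

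For 8 named members the line difference at 24 h differed from that at 12 h by the same kind of test. The difference at 24 h less that at 12 h was −1.18 for Zfp963 (adjusted p = 0.00107 by edgeR) and −0.91 for Zfp964 (0.0131), which had been higher in MSR-dCas9-Activator cells. It was 1.60 for Zfp970 (0.0123), 1.28 for Zfp971 (0.00262), 1.29 for Zfp931 (0.00673), 1.02 for Zfp966 (0.0173), 0.99 for Zfp961 (0.00115) and 0.93 for Zfp933 (0.0306), which had been lower. None of these 8 calls held in every fit that left out a library or a replicate number.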

How the results depend on the processing

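Under the limits of the study (mean over 100 and over 2-fold) 1 member was called before induction and 12 in the induced groups. The limits left 21 at 3 h and at 6 h, 20 at 12 h and 11 at 24 h. The mean of the 5 groups gave 19, induction of the MSR-dCas9-Activator line 13, the difference of the changes 13 and 24 h less 12 h 6. The share of all genes within the same limits is not given, so these counts show only how far the calls on members shrink. Before induction 1 member was called with scaling to the mitochondrial mRNAs, with no filter on low counts, and without the replicate block. Without the block the other counts stayed within 1.5 times. Less the line difference before induction, 26 members were called at 24 h, and Zfp981 turned to −0.128 in the mean of the 5 groups (edgeR, Benjamini-Hochberg adjusted p = 0.835). In the induced groups this contrast is the difference of the changes given above, with the same 22 calls. With the compared libraries alone 25 were called at 24 h and 3 in the MSR-dCas9-Control line. The shares of all genes called are not given for the 26, the 25 or the 3, so these counts describe the members alone. Leaving out a library or a replicate number gave 0 to 3 before induction, 22 to 35 in the induced groups, 24 to 41 at 24 h, 19 to 35 for induction of the MSR-dCas9-Activator line, 4 to 29 for the difference of the changes and 0 to 19 for 24 h less 12 h. Of the values of single named members, 762 kept direction and call, 11 lost the call and 1 turned. The cause of these changes was not tested. The median line difference of all genes tested in the mean of the 5 groups was 0.08 with TMM and −0.41 with mitochondrial scaling. Directions of small changes thus depend on the scale. With DESeq2 the median was 0.54, but over all genes with a count and without the filter on low counts. That value differs from the others in the genes it covers as well as in the scale. Members with few counts or shared sequence are measured least well.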
